A study of Mus musculus with 2 samples.

Results

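The hair matrix transcription factors are the nuclear proteins that cells at the base of the hair follicle use as they leave the cell cycle and build the shaft and its sheaths. They were chosen by symbol as 10 genes known from this setting, Msx1, Msx2, Dlx1, Dlx2, Dlx3, Foxn1, Hoxc13, Gata3, Cux1 and Foxq1, out of 32285 genes counted, and all 10 were found in both libraries. The genes were read in dorsal skin of mice at P3 (postnatal day 3), in 1 droplet single-cell library per group. The control library had the genotype Wildtype and the treatment Dox (doxycycline). The other library had the genotype miR-200b induced and also the treatment Dox, so both groups carried the drug. The labels describe neither the induction construct, nor the cells in which it acts, nor the number of animals per library. With 1 library per group there was no replicate and no test between groups. Every interval below covers counting error at the 95% level, not the spread between animals.

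In a growing follicle, matrix cells divide around the dermal papilla and receive its signals. Their daughters move upward and enter the hair shaft, the inner root sheath or the companion layer. Msx1 and Msx2 are homeodomain factors of the matrix that respond to bone morphogenetic protein (BMP) signals, and loss of Msx2 in mice gives defective hair shafts. Dlx1, Dlx2 and Dlx3 are the distal-less homeodomain factors, of which Dlx3 is needed for a hair shaft to form. Foxn1 is the forkhead factor lost in nude mice, and Hoxc13 controls hair keratin genes. Gata3 is a zinc finger factor needed for the inner root sheath, Cux1 is a cut-homeodomain protein of the inner sheath lineage, and Foxq1, mutated in satin mice, acts in the hair medulla.

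The study's title names the microRNA-200 family and its action on sebaceous fate through SOX9, which is not among the 10 genes. The mature sequences of the induced miRNA and of miR-200a are shown because they hold different seeds, bases 2 to 8, given in capitals (RefSeq, GRCm38.p6).
mmu-miR-200b-3p: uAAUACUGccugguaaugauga
mmu-miR-200a-3p: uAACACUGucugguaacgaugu

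The complement of the miR-200b seed in DNA letters is CAGTATT, and that of miR-200a is CAGTGTT. Both were searched on the transcribed strand only, in the longest annotated 3′ untranslated region (UTR) of each gene (GENCODE vM21, GRCm38). Among the 10 genes CAGTATT stood in Cux1 only, with 2 matches in a 3′ UTR of 8376 bases. CAGTGTT stood in Hoxc13 only, with 1 match. Of 20870 genes with a 3′ UTR, 13.3% held CAGTATT and 17.2% held CAGTGTT. The 3 windows are shown on the transcribed strand, because they are the only matches in these genes, with the matched letters in capitals. The first Cux1 match lies at chr5:136272887-136272893, the second at chr5:136266917-136266923, both on the minus strand, and the Hoxc13 match at chr15:102928644-102928650 on the plus strand.
Cux1, first match: tagactgccggCAGTATTgggtataattt
Cux1, second match: ttacattttagCAGTATTtactttttttt
Hoxc13, miR-200a match: tcattacaaaaCAGTGTTcttttgaaatg
A match describes the letters of the window and does not show that the miRNA binds there. The Cux1 gene also encodes the CASP isoform, and counts per gene do not separate the isoforms.

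On GRCm38, Msx1 lies at chr5:37820485-37824583 (minus strand) and Msx2 at chr13:53466884-53473074 (minus). Dlx1 at chr2:71528113-71533981 (plus) and Dlx2 at chr2:71543408-71546754 (minus) are neighbours, and Dlx3 is at chr11:95120119-95125296 (plus). Foxn1 is at chr11:78357577-78386558 (minus) and Hoxc13 at chr15:102921103-102928814 (plus). Gata3 is at chr2:9857078-9890034 (minus), Cux1 at chr5:136248135-136567490 (minus) and Foxq1 at chr13:31556134-31560976 (plus). Of the annotated genes that overlap a member on its own strand, 9230102O04Rik at Gata3 has a row of its own in the matrices, and A430110C17Rik, Mir721 and Gm38082 at Cux1 have none. The first had 47 and 337 UMIs (unique molecular identifiers, 1 per captured RNA molecule) in control and induced epithelial cells, where Gata3 had 13453 and 13923.

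The control library held 9072 barcodes and 100409201 UMIs, of which 4816 cells were kept with a median of 14584 UMIs. The induced library held 9114 barcodes and 119705137 UMIs, and 4890 cells were kept with a median of 17850.5. The libraries had 74 barcodes in common, of which 8 were among the kept cells and 0 in the hair-forming cluster described next. Epithelial cells numbered 3954 in the control and 4104 in the induced library. Cell classes were rebuilt from marker genes in clusters made in each library on its own, without the 10 genes, and "-like" is meant with each class name. Each class is therefore made of each library's own clusters. Levels are CPM (counts per 1e6 UMIs: the UMIs of a gene over all UMIs of the class) and are compared only within a gene. A log2 ratio is that of the induced over the control level, with its interval in brackets.

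The cluster led by Krt35, a hair cortex keratin, was the hair-forming class present in both libraries. It held 72 control and 51 induced cells, with medians of 22598 and 17146 UMIs. The 2 clusters took different names by the same rule: the control cluster passed as hair matrix with 6 of 9 markers raised, and the induced cluster as hair shaft with 3 of 15. They are called Krt35-led cells here. The 9 hair matrix markers, among them Shh and Lef1, summed to 1003 CPM in control and 1289 CPM in induced Krt35-led cells, and none was at 0. Of the 15 hair shaft markers, 14 were counted, and they summed to 1488 and 14571 CPM, while the median cell held 0 and 41.7 CPM of those other than Krt35. When both libraries were clustered together, 1 cluster held 64 of the 72 control cells (88.9%) and 49 of the 51 induced cells (96.1%). Markers of the dermal papilla, the cells the matrix surrounds, were at 0 for 8 of 9 genes in the control and 6 of 9 in the induced Krt35-led cells. The 8 fibroblast markers summed to 554 and 1042 CPM, of which Dcn made 499 and 991. A further cluster of 32 induced cells was the inner root sheath class, led by Krt25 and Krt71, and the control library gave no such cluster.

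Across the control classes, 6 of the 10 genes (Msx2, Dlx1, Dlx2, Dlx3, Hoxc13 and Cux1) had their highest level in Krt35-led cells. By the highest level alone, the label therefore held for these 6 in the control, and not for the other 4. For Msx1, Msx2, Dlx1 and Foxn1 the intervals of the highest and the next class overlapped, so their place is not settled. Msx1 was highest in endothelial cells at 53.6 CPM (61 UMIs; 41.0 to 68.9), against 33.6 CPM in Krt35-led cells (65 UMIs; 25.9 to 42.8), and these intervals overlapped. Those of Msx2 (next in the dermal papilla) and Dlx1 (next in the outer root sheath) also overlapped with their next class. Foxn1 was highest in spinous epidermis at 15.4 CPM, with an interval that overlapped that of Krt35-led cells at 8.27 CPM, and Foxq1 was highest in the upper follicle at 141 CPM, ahead of sebaceous cells at 61.7 CPM. Gata3 was highest in sebaceous cells at 225 CPM and basal epidermis at 217 CPM, which did not differ beyond counting error. In the induced library 6 of the 10 (Msx1, Msx2, Dlx1, Dlx2, Foxn1 and Hoxc13) were highest in Krt35-led cells and 3 (Dlx3, Gata3 and Cux1) in the inner root sheath, a class the control did not have. Foxq1 was again highest in the upper follicle, at 150.3 CPM. In both libraries that class held a cluster with Krt75, a keratin of the companion layer, first or second among its leading genes, and with both libraries clustered together and small classes kept Foxq1 was highest in the companion layer class of each. Over classes of both libraries only, 6 members in the control and 8 in the induced library were highest in Krt35-led cells. Over the other ways of making the classes, with those under 20 cells left out, the number highest in a hair-forming class was 6 in the control and 8 or 9 in the induced library. With smaller classes kept in the joint clustering, the control number was 9, of which 8 rested on 10 sheath cells.

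Dlx3 and Hoxc13 stood furthest ahead in the control. Dlx3 was 4.60-fold higher in control Krt35-led cells than in the next class, the upper follicle at 12.9 CPM. Hoxc13 was 3.01-fold higher than in the upper follicle, its next class at 67.1 CPM. However, 1 of the 3 control clusters of that class read 190.1 CPM, near the 202 CPM of Krt35-led cells. Cux1 was 2.51-fold higher than in Schwann cells, which read 176 CPM in only 31 cells. In the induced library Hoxc13 stood 7.48-fold above its next class, the inner root sheath at 39.3 CPM.

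**Figure D1:**
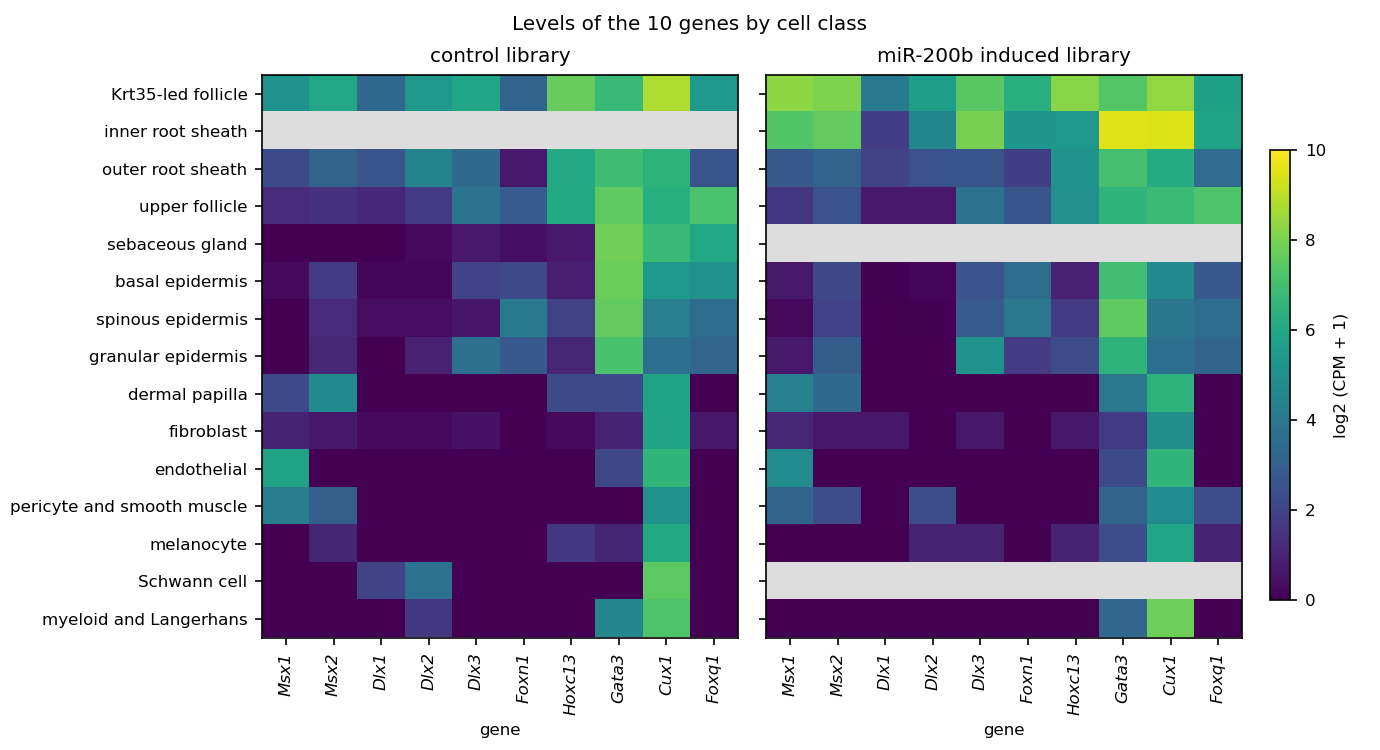
Level of each of the 10 genes in each rebuilt cell class of the control and of the miR-200b induced library; rows are classes, columns are genes, and the colour gives log2 (CPM + 1), from dark for low to yellow for high. Grey rows mark classes with fewer than 20 cells in that library. Hoxc13 is brightest in the Krt35-led row of both libraries, while Gata3 is bright over the epidermal and follicle rows.

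Over all epithelial cells, 4 genes were higher in the induced library (Msx1, Msx2, Dlx3 and Foxn1) and 6 were lower (Dlx1, Dlx2, Hoxc13, Gata3, Cux1 and Foxq1), with every interval off 0. Of the 5861 genes whose mean reached 20 CPM, 33.5% were higher and 55.4% lower by the same interval rule, so an interval off 0 is common at this depth. The 2-fold line lay at 1 on the log2 scale after adding 5 CPM to both levels. Of the 4 members with 20 CPM (Hoxc13, Gata3, Cux1 and Foxq1), 0 were past it higher and 1 lower, Foxq1. Hoxc13 and Foxq1 reached that mean only through the control, where they were high, so the call is a description only. The shares of all tested genes past that line were 2.24% higher and 4.23% lower. The median gene stood at -0.12 on the log2 scale, and scaling to it split the interval calls 44.1% higher and 43.9% lower and kept 4 members higher and 6 lower.

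Foxn1 had the largest positive ratio of the 10 in all epithelial cells. It read 2.95 CPM in the control (228 UMIs) and 11.4 CPM among the induced cells (1121 UMIs), which is 3.86-fold (1.95 [1.74, 2.16] in log2). Msx1 was 2.22 and 6.03 CPM (1.45 in log2), Msx2 4.78 and 8.60 CPM (0.85), and Dlx3 7.51 and 9.60 CPM (0.35). Dlx2 had the largest negative ratio, with 7.20 CPM in the control and 1.69 CPM in the induced library, 4.26-fold lower. Foxq1 was 35.2 and 14.7 CPM (2.39-fold lower) and Hoxc13 30.5 and 13.2 CPM (2.31-fold lower). Dlx1 was 1.84 and 0.855 CPM, Cux1 68.4 and 44.0 CPM, and Gata3 174 and 142 CPM. These pooled levels also move with the make-up of the libraries: outer root sheath cells numbered 1380 and 1020, sebaceous cells 219 and 0, and spinous cells 108 and 427. The part of that make-up in the pooled ratios was not tested, and levels within classes follow.

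In Krt35-led cells, 6 genes were higher in the induced library (Msx1, Msx2, Dlx3, Foxn1, Hoxc13 and Gata3), 1 was lower (Cux1), and the intervals of 3 (Dlx1, Dlx2 and Foxq1) spanned 0. Of 5991 genes tested there, 16.4% were higher and 25.7% lower by that rule. Past the 2-fold line were 4 of the 9 members with 20 CPM, all higher (Msx1, Msx2, Dlx3 and Foxn1), against 4.77% of all genes higher and 5.37% lower. Foxn1 reached 20 CPM only through the induced cells, and without the richest cell of each library it was under that mean, so its call is a description only. The median gene stood at -0.11 on the log2 scale. Scaled to it, the interval calls split 20.8% higher and 20.5% lower, and the members stayed at 6 higher and 1 lower.

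The Msx pair had large ratios and were seen in many induced cells, although 5 control cells held 72.3% of the few control UMIs of Msx1 (38.6% in the induced library). Msx1 read 33.6 CPM in control Krt35-led cells (65 UMIs; 25.9 to 42.8) and 311 CPM in induced ones (316 UMIs; 278 to 348), which is 9.27-fold (3.21 [2.82, 3.62]). In cells picked by markers without clusters it was smaller, with 35.5 and 146 CPM (2.04 [1.53, 2.60]). Msx1 had a UMI in 17 of 72 control and 38 of 51 induced cells, so the median cell read 0 CPM in the control and 189.8 CPM in the induced library. Thinned to 2000 UMIs per cell, 5.56% of control (1.53 to 13.6) and 32.0% of induced cells (19.5 to 46.7) kept a UMI of Msx1, against 23.6% and 74.5% unthinned. In fibroblasts, thinned alike, Msx1 was found in 0.382% of 523 control and 0.791% of 253 induced cells, so the shares in Krt35-led cells lay above that level. Msx2 read 63.1 CPM in the control (122 UMIs; 52.4 to 75.3) and 269 CPM in the induced cells (273 UMIs; 238 to 303), 4.27-fold (2.09 [1.78, 2.41]). Its cells with a UMI numbered 45 of 72 and 39 of 51, and the median cell read 30.5 and 121 CPM, so the cells with Msx2 were also richer in it in the induced library.

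Of the 3 Dlx members, Dlx3 alone had an interval off 0. Dlx3 read 59.4 CPM (115 UMIs) in control and 173 CPM (176 UMIs) in induced Krt35-led cells, 2.92-fold (1.54 [1.20, 1.90]), with median cells at 36.1 and 147 CPM. Dlx1 was 9.30 and 15.8 CPM (18 and 16 UMIs; 0.76 [-0.31, 1.82]). Dlx2 was 38.8 and 47.3 CPM (0.29 [-0.27, 0.83]), so neither differed beyond counting error.

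Foxn1 and Hoxc13, which act in shaft cells, read as follows. Foxn1 was 8.27 CPM (16 UMIs; 4.73 to 13.4) and 78.8 CPM (80 UMIs; 62.5 to 98.1), 9.53-fold (3.25 [2.47, 4.13]). This ratio rested on few cells: 1 induced cell held 59 of the 80 UMIs, and 5 cells held 92.5%. Without the richest cell of each library Foxn1 was 6.77 and 22.6 CPM, a log2 ratio of 1.74 [0.68, 2.86]. Hoxc13 was 202 CPM (390 UMIs) and 294 CPM (298 UMIs), 1.46-fold (0.54 [0.32, 0.76]), while its median cells stood at 91.9 and 92.5 CPM. The Hoxc13 ratio turned to -0.21 with doublets kept and to -0.54 in cells picked by markers without clusters.

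Gata3 and Cux1, factors of the inner sheath lineage, differed in opposite directions in Krt35-led cells. Gata3 was 108 CPM (208 UMIs) and 159.6 CPM (162 UMIs), 1.48-fold higher in the induced library (0.57 [0.27, 0.87]), although the median cell read 60.7 and 46.3 CPM. That ratio was 0.24 [-0.077, 0.55] with the stricter cell filter, 1.91 with doublets kept and 1.93 at the lower clustering resolution. Cux1 was 441 CPM (853 UMIs) and 328 CPM (333 UMIs), 1.34-fold lower (-0.43 [-0.61, -0.24]). The Cux1 ratio turned to 0.20 with doublets kept, 0.15 at the lower clustering resolution and 0.30 in cells picked by markers. In the first 2 of these settings no inner root sheath cluster formed, and the induced Krt35-led cluster then held 92 and 70 cells with Krt25 at 2702 and 3356 CPM, against 82.8 CPM in the cluster used here. Foxq1 was 38.8 and 50.3 CPM (75 and 51 UMIs; 0.37 [-0.17, 0.91]), but 1 control cell held 53 of the 75 UMIs. Without the richest cell of each library Foxq1 was 11.5 and 39.1 CPM (1.76 [0.97, 2.59]).

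**Figure D2:**
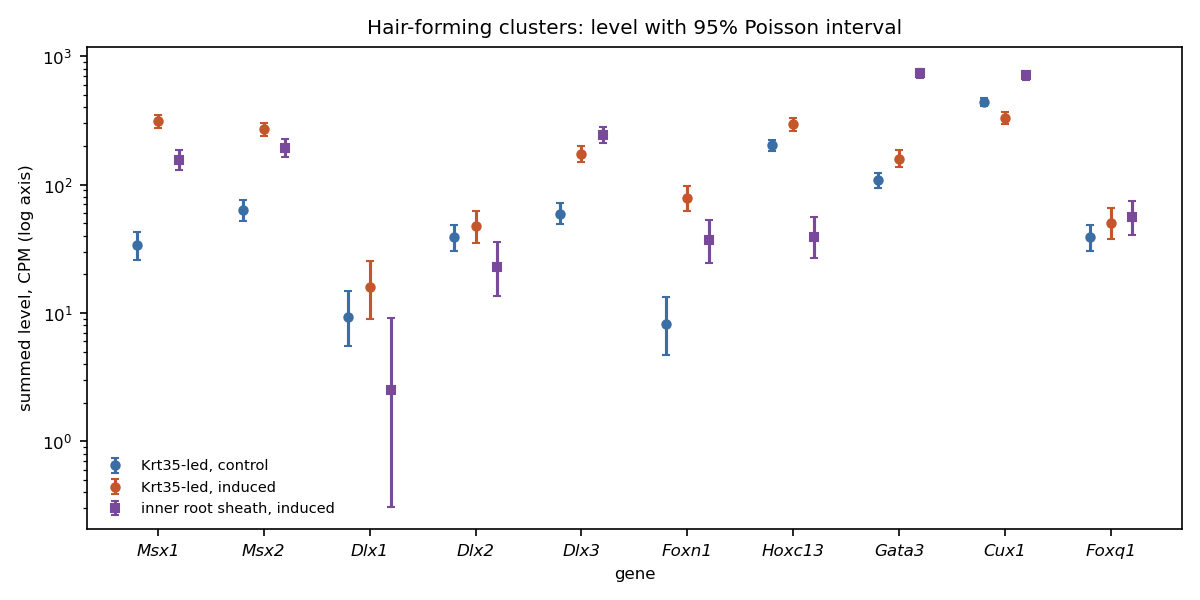
Level in CPM, on a log axis, of each of the 10 genes in the Krt35-led cells of both libraries and in the inner root sheath class of the induced library, with 95% counting intervals as bars. Msx1, Msx2, Dlx3 and Foxn1 read higher in the induced than in the control Krt35-led cells, with intervals apart.

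Krt35-led cells of the 2 libraries also read differently in shaft keratins and in dividing cells, the first through a few cells and the second as in other classes. Krt35 itself was 860.0 and 2064 CPM, and Krt33a, a keratin of the later cortex, was 202 and 3842 CPM. At 2000 UMIs per cell, 80.6% of 72 control cells (69.5 to 88.9) and 62.0% of 50 induced cells (47.2 to 75.3) had at least 2 UMIs of 18 G2/M genes, the genes of dividing cells, with overlapping intervals. The same share was 41.0% and 33.5% in the outer root sheath and 32.6% and 21.0% over all epithelial cells, lower in the induced library there too. Cells were therefore also split by the summed level of the 13 shaft markers other than Krt35, at 1000 CPM, a line set after the data had been seen. Under it fell 66 control and 43 induced cells, and at or over it 6 and 8, while 3 and 4 cells lay between 500 and 2000 CPM. The late cells held 388 of the 390 control and 3898 of the 3899 induced UMIs of Krt33a, which read 1.08 and 1.24 CPM in the cells under the line. Krt33a is 1 of the 13 markers that set the line, so this follows in large part from the split itself.

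Among cells under 1000 CPM, where the cortex keratin Krt35 read 532 and 605 CPM and the matrix signal Shh 321 and 304 CPM, 5 members were higher and 1 lower. By the same interval rule 15.7% of 5928 genes were higher and 21.9% lower. Msx1 was 34.0 and 356 CPM, 10.5-fold (3.39 [2.99, 3.80]). Msx2 was 60.5 and 227 CPM, 3.75-fold (1.91 [1.56, 2.26]), and Dlx3 58.9 and 182 CPM, 3.09-fold (1.63 in log2, with a lower bound of 1.26). These 3 were past the 2-fold line, against 3.95% of genes higher and 4.50% lower. Gata3 was 112 and 193 CPM (0.78 [0.47, 1.09]), Foxq1 40.5 and 63.2 CPM (0.64 [0.10, 1.17]), and Cux1 454 and 364 CPM (-0.32 [-0.51, -0.12]). Foxn1 had 10 and 7 UMIs, 5.40 and 8.67 CPM (0.68 [-0.95, 2.22]), and Hoxc13 read 197 and 196 CPM (-0.006 [-0.28, 0.27]). Without the late cells the log2 ratios of Msx1, Msx2 and Dlx3 thus lay close to those of the whole cluster (3.21, 2.09 and 1.54), while those of Foxn1 and Hoxc13 were smaller and spanned 0.

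In the cells at or over 1000 CPM, 6 in the control and 8 in the induced library, Foxn1 read 72.2 and 352 CPM and Hoxc13 313 and 674 CPM. Foxn1 was higher there than in the cells under the line in both libraries, with intervals apart. Hoxc13 was so in the induced library, while its control intervals overlapped (204 to 458 CPM over the line and 177 to 218 CPM under it). For Foxn1, 1 induced cell held 59 of the 73 UMIs. Without the richest cell of each library Foxn1 read 43.0 CPM (8.87 to 126) and 115 CPM (63.1 to 194), with overlapping intervals, and the control interval then also overlapped that of the control cells under the line (2.59 to 9.93). So treated, Hoxc13 read 337 CPM (193 to 548) and 734 CPM (589.5 to 903). Msx2 read 120.3 and 433 CPM, Msx1 24.1 and 139.7 CPM, both with intervals apart, Dlx3 72.2 and 139.7 CPM and Cux1 156 and 188 CPM. The control value of Msx1 rested on 2 UMIs, fewer than the 3 counts used as a floor. Dlx1 and Foxq1 had 0 UMIs in both libraries, where 3 counts would have read 36.1 CPM in the control and 14.4 CPM in the induced cells. The part of the differing share of late and of dividing cells in the ratios of the whole cluster was not tested beyond this split.

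**Figure D3:**
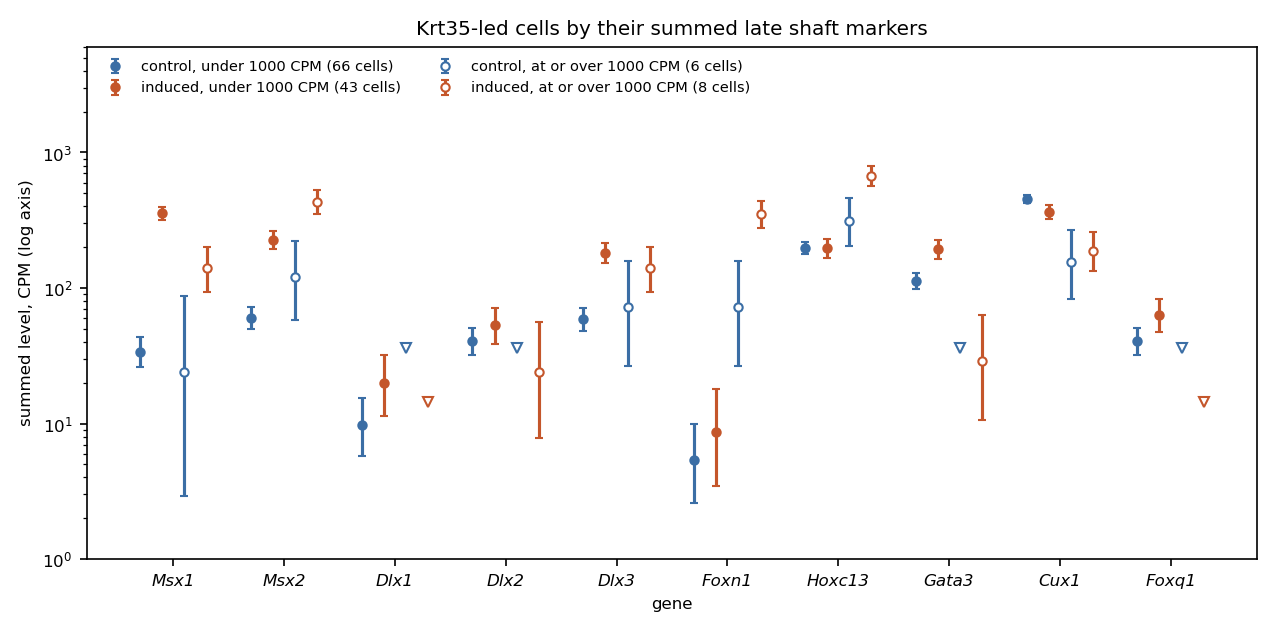
Level in CPM, on a log axis, of each gene in Krt35-led cells of the control and induced libraries, split at 1000 CPM of the 13 shaft markers other than Krt35; filled points are cells under the line, open points cells at or over it, bars are 95% counting intervals, and an open triangle marks the level that 3 counts would give where the count was 0. Between libraries, the intervals of Msx1, Msx2, Dlx3, Gata3 and Cux1 lie apart under the line, and those of Msx1, Msx2, Foxn1 and Hoxc13 over it, where 1 induced cell held 59 of the 73 Foxn1 UMIs.

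Members were seen together in the same Krt35-led cells. At full depth the median cell held UMIs of 5 of the 10 genes in the control and 6 in the induced library, and at least 5 were seen in 38 of 72 (52.8%) and 40 of 51 cells (78.4%). In the outer root sheath the medians were 2 and 2. Thinned to 2000 UMIs, the Krt35-led medians were 1 and 2, and at least 5 members were seen in 0 control and 3 induced cells. Thinned, Msx1 and Msx2 met in 5 of 50 induced cells, where their shares alone would give 4.16. Hoxc13 and Cux1 met in 10 of 72 control cells, where the shares would give 9.92. At this depth joint detection was therefore near what the separate shares give for these pairs.

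In the inner root sheath class of the induced library, Gata3, Cux1 and Dlx3 each had their highest level of that library. Gata3 was 734 CPM (675 to 796) and Cux1 708 CPM (651 to 769), against 159.6 and 328 CPM in induced Krt35-led cells, and these intervals did not overlap. Gata3 and Cux1 met in 14 of 30 thinned sheath cells, where their shares would give 12.7, and Dlx3 and Gata3 in 8, where the shares would give 5.33. Dlx3 read 245 CPM, Msx2 193 CPM, Msx1 156 CPM and Foxq1 55.7 CPM in this class. Hoxc13 was low at 39.3 CPM, against 294 CPM in Krt35-led cells of that library, and Foxn1 read 36.7 CPM. Dlx2 was 22.8 CPM, and Dlx1 had 2 UMIs (2.53 CPM).

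Clustering both libraries together gave a sheath cluster with 10 control and 19 induced cells, with Krt25 at 3315 CPM in the control cells. There Gata3 was 955 CPM in the control (744 to 1206) and 849 CPM in the induced cells (775 to 928), with overlapping intervals. Cux1 was 1159 CPM (926 to 1434) and 744 CPM (675 to 818), higher in the control cells. Dlx3 read 81.8 and 332 CPM, Msx2 81.8 and 262 CPM, and Msx1 68.2 and 196 CPM, all higher in the induced sheath cells, but the control values rest on 73312 UMIs in all. Hoxc13 read 54.6 and 52.4 CPM there, and Foxq1 123 and 48.9 CPM.

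**Figure D4:**
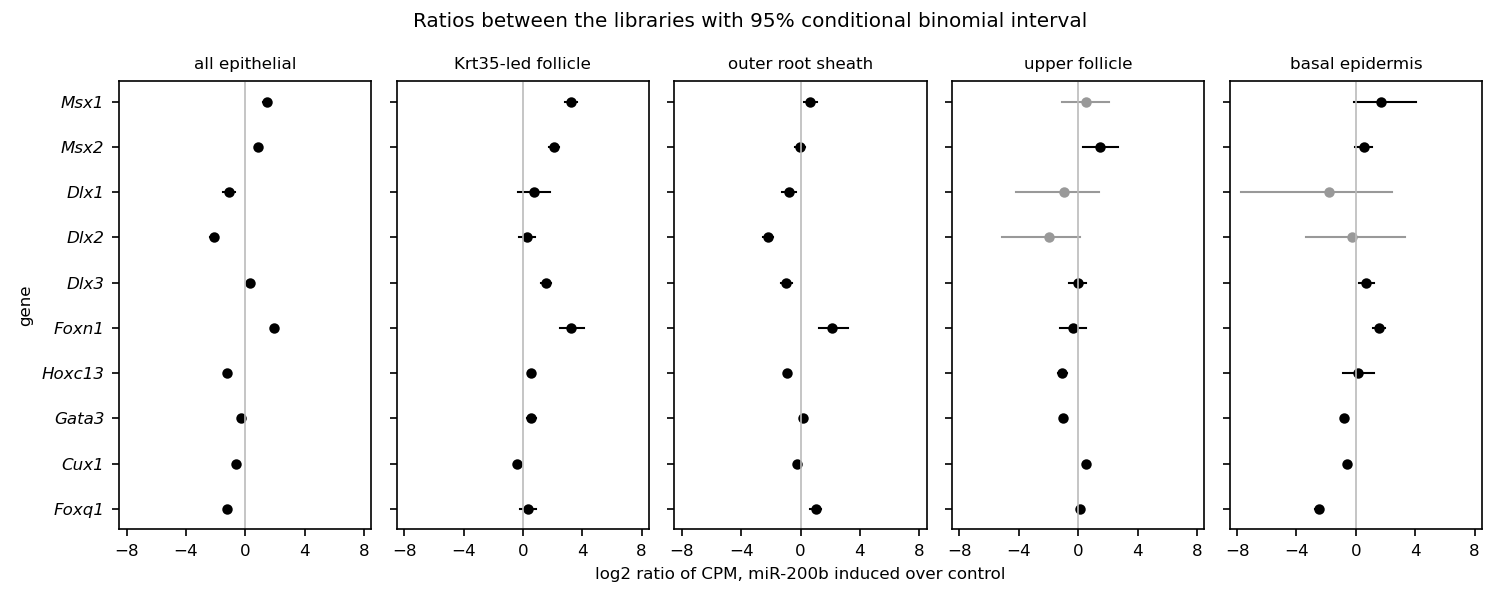
Log2 ratio of the induced over the control level of each of the 10 genes, over all epithelial cells, Krt35-led cells, outer root sheath, upper follicle and basal epidermis, with 95% counting intervals as bars; grey marks genes with fewer than 20 UMIs in both libraries together, and the vertical line at 0 marks equal levels. Msx1 and Foxn1 lie right of 0 in Krt35-led and all epithelial cells, and Dlx2 lies left of 0 in the outer root sheath.

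The outer root sheath is the outer layer of the follicle, continuous with the epidermis, and held 1380 control cells in 12 clusters and 1020 induced cells in 9. There 4 members were higher in the induced library, 5 lower and 1 spanned 0, with 33.4% and 42.4% of 6152 genes higher and lower by the same rule. Of the 3 members tested against the 2-fold line, 0 passed, against 2.26% of genes higher and 2.71% lower. Dlx2, which was under the 20 CPM mean, read 21.8 CPM in the control and 4.74 CPM in the induced library, 4.59-fold lower (-2.20 [-2.54, -1.87]). Its control clusters ran from 0 to 37.0 CPM (median 20.2) and its induced ones from 0.698 to 10.9 CPM (median 3.45), so the ranges overlapped while the medians lay apart. The Dlx2 ratio stayed between -3.79 and -2.04 over the alternatives.

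Its neighbour Dlx1 read 5.43 and 3.18 CPM (-0.77) in the outer root sheath, and Dlx3 9.87 and 5.11 CPM (-0.95). Over the alternatives the ratio lay between -2.84 and -0.87 for Dlx1, and between -2.10 and -0.62 for Dlx3. Pooled over this class, the 3 Dlx members were thus lower in the induced library, where 42.4% of genes were lower. None of them reached a mean of 20 CPM. Dlx3 was richest in 1 control cluster of 113 cells led by Ptch1, Cux1 and Lhx2, at 28.8 CPM. The median of its control clusters was 5.83 CPM, and its induced clusters ran from 0.604 to 14.2 CPM (median 2.09). Dlx4 read 2.61 and 2.81 CPM (0.11 [-0.47, 0.68]) and Dlx5 1.38 and 1.41 CPM (0.027 [-0.79, 0.84]). Hoxc13 was 64.2 and 34.1 CPM, 1.88-fold lower (-0.91), with clusters from 36.7 to 123 CPM in the control and 9.03 to 63.7 CPM in the induced library. Cux1 was 86.3 and 72.2 CPM (-0.26), and 1 control cluster led by Ptch1, Cux1 and Lhx2 read 346 CPM. The Cux1 ratio turned to 0.26 at the higher clustering resolution and was -1.61 when the libraries were clustered together. Foxn1 was 0.592 and 2.61 CPM (2.14, and between 1.94 and 4.21 over the alternatives), Foxq1 5.18 and 10.4 CPM (1.01), Msx1 3.70 and 5.89 CPM (0.67) and Gata3 117 and 131 CPM (0.16), all higher in the induced library. Msx1 turned to -0.77 when the libraries were clustered together. Msx2 read 8.04 and 7.76 CPM (-0.050) and did not differ beyond counting error.

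In basal epidermis, the dividing layer of the skin surface, 2 members were higher (Foxn1 and Dlx3), 3 lower (Foxq1, Gata3 and Cux1) and 5 spanned 0. Of 5559 genes, 38.6% were higher and 36.4% lower there. Foxn1 was 3.64 and 10.7 CPM, 2.93-fold (1.55 [1.14, 1.98]), and its log2 ratio lay between 1.37 and 3.09 over the alternatives. Its 6 control clusters ran from 0.403 to 13.0 CPM (median 1.38) and its 6 induced clusters from 8.53 to 12.0 CPM (median 10.6), and the control cluster at 13.0 CPM was led by the stress keratin Krt16. Foxq1 was 33.8 and 6.02 CPM, 5.62-fold lower (-2.49 [-2.74, -2.24]), with clusters from 7.61 to 59.7 CPM and from 1.14 to 12.4 CPM. Gata3 was 217 and 122 CPM (1.78-fold lower), Cux1 39.8 and 26.8 CPM (-0.57) and Dlx3 3.02 and 4.91 CPM (0.70).

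Epithelial clusters that took no name, 1054 control and 1268 induced cells, held Foxn1 at 0.529 and 15.3 CPM (9 and 352 UMIs). Their 11 control clusters ran from 0 to 1.16 CPM and their 11 induced clusters from 3.75 to 26.2 CPM. These clusters were led by different genes in each library and are not a matched class. Several control ones were led by Aldh3a1 or Hspa1a, the 2 induced ones richest in Foxn1 (26.2 and 24.9 CPM) by Krt14 and Krt16, and 1 induced cluster had a median of only 1062 UMIs. Foxq1 was 31.0 and 10.8 CPM in these clusters. In spinous epidermis, the layer above the basal one, Foxn1 read 15.4 and 14.7 CPM (-0.063 [-0.47, 0.37]) and did not differ beyond counting error. Dlx3 read 0.521 and 6.33 CPM there (2 and 119 UMIs), and this ratio turned to -0.13 when the libraries were clustered together. In granular epidermis, which forms the barrier, Dlx3 was 12.0 and 33.5 CPM (1.49 [1.00, 1.99]). Foxn1 was 5.98 and 2.46 CPM in granular cells.

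**Figure D5:**
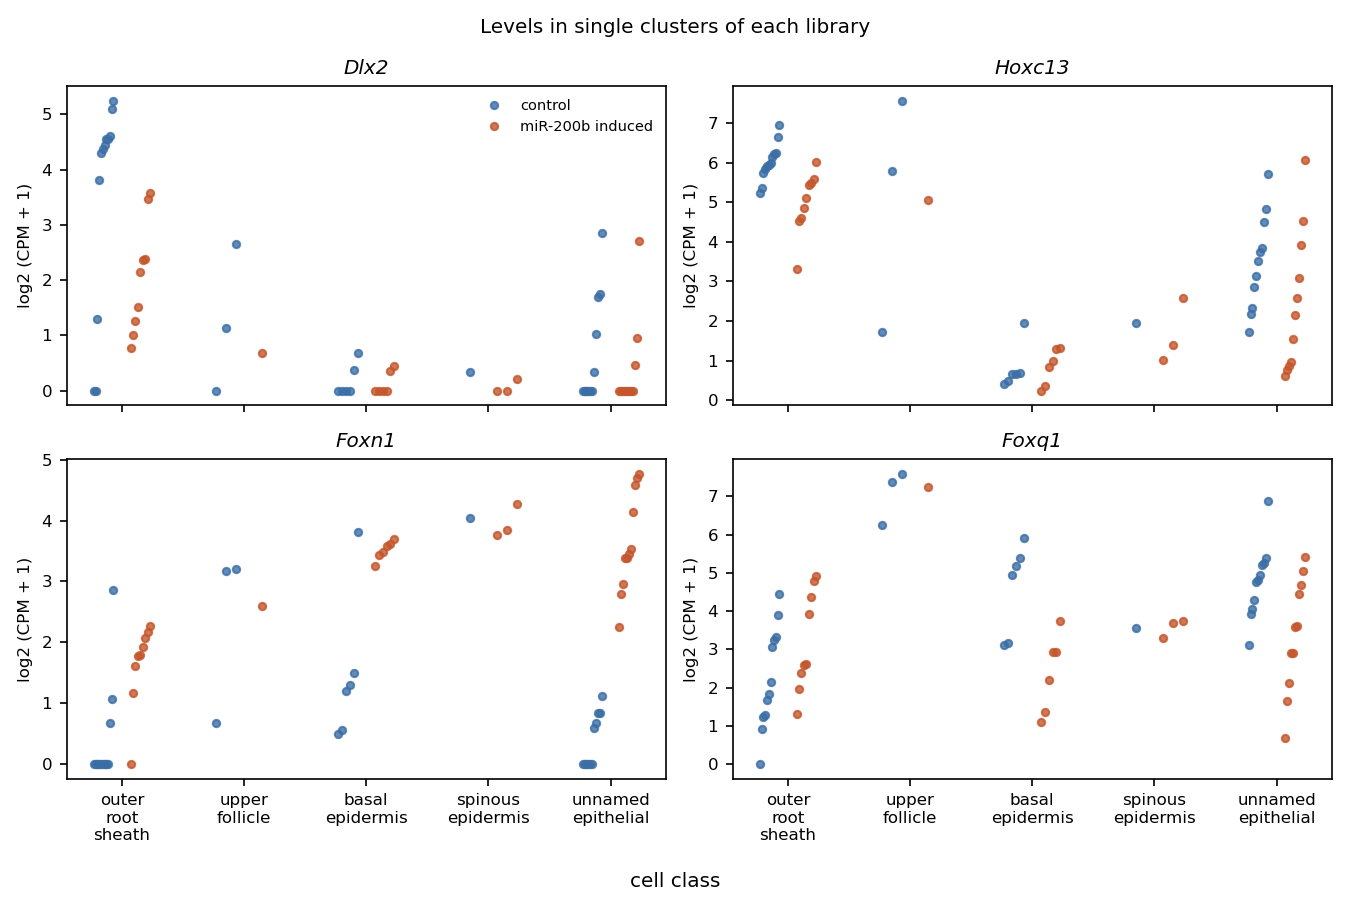
Level, as log2 (CPM + 1), of Dlx2, Hoxc13, Foxn1 and Foxq1 in the outer root sheath, upper follicle, basal, spinous and unnamed epithelial clusters of at least 20 cells; each point is 1 cluster, coloured by library. The Dlx2 points of the control outer root sheath reach 37.0 CPM and those of the induced one 10.9 CPM, and the Foxq1 points of basal epidermis reach 59.7 and 12.4 CPM.

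The upper follicle, between the bulge and the skin surface, held 228 control cells in 3 clusters and 107 induced cells in 1. There 2 members were higher, 2 lower and 6 spanned 0, with 22.6% of 5627 genes higher and 36.8% lower. Foxq1 was 141 and 150.3 CPM (0.090 [-0.068, 0.25]), so its lower pooled level was not seen in its richest class as made here. Its control clusters read 75.2, 165 and 191 CPM, on both sides of the induced value. The ratio lay between -0.67 and 0.51 over the 6 alternatives. Hoxc13 was 67.1 and 32.3 CPM (-1.06), but the 3 control clusters read 2.28, 54.1 and 190.1 CPM, on both sides of the induced value, as for the next 2 genes, and the ratio turned to 0.24 at the lower resolution. Gata3 was 183 and 92.6 CPM (-0.99), with control clusters at 45.0, 192 and 262 CPM, and its ratio lay between -0.77 and -0.003 under the 6 other ways of making the classes. Cux1 was 77.0 and 112 CPM (0.54), with control clusters at 22.4, 35.4 and 157 CPM. The Cux1 ratio turned to -0.90 with the stricter cell filter, -1.19 at the higher resolution and -0.66 with the members kept in the clustering. Its highest value over the 6 alternatives was 2.83.

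Outside the epithelium the 10 genes were sparse apart from Cux1 and Msx1. Endothelial cells held Msx1 at 53.6 CPM (61 UMIs; 41.0 to 68.9) in the control and 27.2 CPM (22 UMIs; 17.0 to 41.2) in the induced library, the 1 member lower there, against 22.6% of genes lower and 18.0% higher. Pericytes and smooth muscle read 17.2 and 8.15 CPM of Msx1 (12 and 2 UMIs; -1.08 [-4.28, 1.09]), which did not differ beyond counting error. Fibroblasts read 56.5 and 29.4 CPM of Cux1 (-0.94), the 1 member lower there, against 25.4% of genes lower and 24.7% higher. Cux1 was 176 and 211 CPM in Schwann cells, 152 and 218 CPM in myeloid and Langerhans cells, and 91.4 and 92.7 CPM in endothelial cells. The induced Schwann value rested on 18 cells, under the 20 cells that a class needed to be compared. Dermal papilla cells, which also use Msx2, held 7 and 2 UMIs of it, 26.0 and 9.78 CPM (-1.41 [-4.72, 0.98]). Foxn1 had 0 UMIs in fibroblasts and endothelial cells of both libraries, where 3 counts would read 0.580 and 1.66 CPM in fibroblasts and 2.64 and 3.71 CPM in endothelial cells.

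Across 88 clusters of at least 20 cells, 47 of the control and 41 of the induced library, the genes whose level ran most like each member were found by Pearson's r of log2 CPM. Clusters of 1 library share its depth, so these values are a description. Msx1 ran most like Shh (0.74), the matrix signal, S100a3 (0.71) and Krt35 (0.70), and Msx2 like Shh (0.81), Krt35 (0.80) and Gm49425 (0.78). Dlx3 ran like the inner sheath keratin Krt28 (0.77), Msx2 (0.76) and Shh (0.72). Both Msx genes and Dlx3 thus shared Shh among their 3 nearest genes, and Cux1 had it too (0.58), after Nrp2 (0.64) and Tmeff1 (0.62). Dlx1 ran like its neighbour Dlx2 (0.84), Myb (0.65) and Lrrc4 (0.64), and Dlx2 like Hoxc13 (0.68), Bnc2 (0.66) and Lrrc4 (0.66). Hoxc13 ran like Lhx2 (0.90), a factor of follicle stem cells, Bnc2 (0.82) and Tbx1 (0.76). Of the remaining 3, Foxn1 ran with Fam83c (0.78), Rab25 (0.74) and Slc4a9 (0.73), Gata3 with S100a14 (0.93), Trim29 (0.92) and Fxyd3 (0.91), and Foxq1 with Lratd1 (0.82), Cdc42bpg (0.69) and Esrp2 (0.69). By Spearman's rank correlation 0 of the 3 nearest genes were the same for Msx1, Msx2, Dlx3 and Gata3, and at most 2 for any other member. Shh was then not among the 3 nearest genes of any of the 4, with rho at 0.42 for Msx1, 0.40 for Msx2, 0.32 for Dlx3 and 0.24 for Cux1, so its place among them rests on Pearson's r.

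Other genes of these pathways were read from 3 lists in Krt35-led cells. Of 28 further genes of the same families, 5 reached 20 CPM, 0 were past the 2-fold line higher and 1 lower, Hoxc8 with 51.2 and 19.7 CPM (-1.38), which reached that mean only through the control, so its call is a description only. Dlx4, under the line, was 12.4 and 29.6 CPM (1.25 [0.43, 2.09]). Their median ratio was -0.70, against -0.10 for all genes tested. Of 19 other follicle transcription factors 15 were tested, 5 were past the line higher and 2 lower, with a median of 0.27, beside 4.77% of all genes higher, 5.37% lower and a median of -0.10. Trps1, a repressor needed for hair growth, was 52.2 and 165 CPM (1.66), Hr, the hairless protein, 24.3 and 67.0 CPM (1.46), and Ovol1 33.6 and 91.6 CPM (1.45). Klf4 and Klf5, factors of epithelial differentiation, were 93.5 and 219.7 CPM (1.23) and 41.9 and 97.6 CPM (1.22). Tfap2c was 92.0 and 29.6 CPM (-1.64) and Vdr, the vitamin D receptor, 50.1 and 21.7 CPM (-1.21). This list therefore held members on both sides of the line.

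Of 17 genes of the BMP pathway, which acts upstream of the Msx genes, 13 were tested, 1 was past the line higher and 1 lower, with a median of 0.23. That count lies near the 4.77% and 5.37% of all genes. Bambi, a decoy receptor that is also a marker used for the hair matrix name, was 109.6 and 308 CPM (1.49). Fst, the secreted inhibitor follistatin, was 112 and 49.3 CPM (-1.18). The ligand Bmp4 was 125 and 142 CPM (0.19 [-0.12, 0.49]). The target genes Id1 with 206 and 305 CPM (0.57), Id2 with 66.7 and 114 CPM (0.78) and Id3 with 306 and 470.0 CPM (0.62) stayed under the line and were higher in the induced cells. The ligand Bmp7 and the receptor Bmpr2 were lower there, Bmp7 with 159 and 98.5 CPM (-0.69 [-1.03, -0.36]) and Bmpr2 with 90.4 and 58.1 CPM (-0.64 [-1.09, -0.20]). Lef1, the partner of Wnt signals in the matrix, was 156 and 219 CPM (0.49).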

How the data were processed

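The deposited matrices hold raw UMI counts of each gene and barcode. Per the submitters' processing notes the authors used Cell Ranger 6.0.0 and mm10. Epidermis and dermis were dissociated apart and mixed 30:70 before loading, per the labels' protocols. Barcodes were kept with at least 1000 UMIs, 500 genes and under 15% mitochondrial UMIs, and the 7% with the highest Scrublet scores in each library were removed, because Scrublet's own cutoff marked 3 control cells (0.0579%) and 1 induced cell (0.0190%) and could not be used. Each library was clustered on its own (2000 variable genes, 30 components, 15 neighbours, Leiden resolution 1.0, then 2.5 for epithelial clusters with over 3000 CPM of keratins), leaving out the members, the lists, and cell cycle, mitochondrial, ribosomal, haemoglobin and sex-linked genes. A class name needed 3 markers in 25% of cells and raised 1.5-fold with 20 CPM added. These thresholds, the resolution, the joining of the Krt35-led clusters and the 1000 CPM split were set after seeing the data, and the members and lists were chosen with earlier results of these data known. Thinning to 2000 UMIs left out 56 control and 353 induced cells.

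The text names all 10 members, the 3 nearest genes of each over the clusters (among genes with 500 UMIs), and list genes of at least 20 CPM with the largest ratios; BMP genes under the 2-fold line, Dlx4 and Lef1 were named after their values were seen. Intervals are exact Poisson for levels, exact binomial for ratios and exact Clopper-Pearson for shares, at 95%, and cover counting error only. Alternatives changed the cell filter, doublets, joint clustering, resolution, clustering genes, scaling, pseudocount, low filter, thinning and class definition. The split by late shaft markers, the removal of the richest cell, and the class orders over classes of both libraries or with small classes kept were added after seeing the data. The calculations were tested on simulated data. Tools were scanpy 1.11.5, leidenalg 0.10.2, matplotlib 3.10.9, scipy 1.17.1, numpy 2.4.6, pandas 2.3.3 and Python 3.11.15.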

Additional observations from a re-analysis of the deposited data

Results flagged for a closer look

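Msx1 and Msx2 were also read in barcodes that failed the cell filter, which no comparison used. Msx1 was at 15.1 CPM (99 UMIs; 12.2 to 18.3) in the 3856 failed barcodes of the induced library and at 3.77 CPM (17 UMIs; 2.20 to 6.04) in the 3894 of the control. Msx2 was at 15.2 CPM (100 UMIs; 12.4 to 18.5) and 7.10 CPM (32 UMIs; 4.86 to 10.0). What drew attention to both is an interval above that of the control in data outside the main measurement. The other members had overlapping intervals. Among those higher in the induced library, Foxn1 read 3.33 CPM in the control and 7.30 CPM in the induced library. Dlx3 read 12.4 and 15.4 CPM, Hoxc13 24.2 and 27.2 CPM and Cux1 69.9 and 83.7 CPM. Dlx2 with 6.21 and 3.20 CPM and Foxq1 with 26.0 and 19.5 CPM were lower. How all genes read in the failed barcodes was not computed, so the direction of the members there is a description only. Failed on mitochondrial UMIs alone were 463 control and 1129 induced barcodes. Hoxc13 and Cux1 were lower in the induced library over all kept epithelial cells. The failed barcodes held 6572190 UMIs in the induced and 4506242 UMIs in the control library.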

How the results depend on the processing

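Of 427 ratios recomputed under alternatives, 42 changed sign, 29 of them where the interval of the reported ratio spanned 0 and 13 where it was off 0. Those 13 follow. In Krt35-led cells Hoxc13 turned to -0.21 with doublets kept, -0.54 in cells picked by markers and -0.006 under 1000 CPM of late shaft markers. Cux1 turned to 0.20 with doublets kept, 0.15 at the lower resolution and 0.30 in cells picked by markers, and the number of members lower became 0 and 0 under the first 2 of these. In the outer root sheath Msx1 turned to -0.77 with joint clustering and Cux1 to 0.26 at the higher resolution. In the upper follicle Cux1 turned to -0.90 with the stricter filter, -1.19 at the higher resolution and -0.66 with members kept in the clustering, and Hoxc13 to 0.24 at the lower resolution. Dlx3 in spinous cells turned to -0.13 with joint clustering. Over all epithelial cells, members past the 2-fold line were 1 higher with no filter on low values and 2 lower with a pseudocount of 1 CPM. The causes were not tested. Over 9 alternatives in Krt35-led cells the ratio stayed between 2.04 and 3.46 for Msx1, 1.68 and 2.27 for Msx2, 1.47 and 1.99 for Dlx3, and 0.68 and 3.48 for Foxn1. Over all epithelial cells all 10 members kept their direction in the 7 alternatives run. No paired analysis was possible because each group has 1 library. With 72 and 51 Krt35-led cells, a ratio of a gene with few UMIs, such as Dlx1, is not resolved.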
